A study of Mus musculus with 20 samples.

Results

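Kidney transcriptomes of mice given sparsentan at 120 mg/kg were compared with those of mice given 60 mg/kg, to ask what the higher dose changed beyond the lower dose. All 5 EIC + S120 libraries and all 5 EIC + S60 libraries entered the comparison, which is 10 of the 20 libraries of the study. Sparsentan is a single molecule that blocks both the endothelin type A receptor and the angiotensin II type 1 receptor. Every mouse of both dose groups was a female NCr nude mouse homozygous for the nude allele, bought at 7 weeks of age, and was injected intravenously on 6 occasions, every other day, with engineered immune complexes (EIC). Each injection held 0.2 mg of human galactose-deficient IgA1 (Gd-IgA1) and 0.1 mg of a recombinant human IgG (rIgG) that binds it, as a model of IgA nephropathy. Sparsentan was given by daily gavage for 11 days, at 120 mg/kg in EIC + S120 mice and at 60 mg/kg in EIC + S60 mice, and kidneys were taken on day 12. The remaining 10 libraries, 5 of EIC mice given complexes and vehicle and 5 of Control mice given saline and vehicle, were used only to place the levels of the 2 dose groups. Nude mice lack a thymus and so have few T cells, and the complexes were made of human proteins. Kidneys were taken 1 day after the last gavage and injection, and the hour of the day is not stated in the sources used here.

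The endothelin type A receptor (Ednra) and the angiotensin receptor (Agtr1a) both raise vascular tone in the kidney, and the angiotensin receptor also raises sodium retention. Blocking the angiotensin receptor releases the brake on renin secretion by juxtaglomerular cells. Several groups of genes met below follow the time of day or a steroid hormone. In the circadian clock, the activators CLOCK and BMAL1 (encoded by Arntl) bind E-boxes and drive Per, Cry and Nr1d genes, whose products repress them in turn, while REV-ERB repressors act at RORE sites. In the kidney this loop sets daily rhythms of transport and metabolism. The glucocorticoid receptor induces genes such as Fkbp5, Zbtb16, Sgk1 and Tsc22d3, and immediate early genes such as Fos and Egr1 respond within minutes to growth factors or stress.

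A gene was tested if 5 or more of the 10 libraries held 10 or more counts of it. Of the 13475 such genes, 7 differed between the doses at an adjusted p under 0.05 in edgeR's quasi-likelihood test, which is 0.0519% of the genes tested. Higher in EIC + S120 kidneys were 6 genes (0.0445%), among them Cry1, Zbtb16, Gldc, Map3k5 and Id2, and lower was 1 gene (0.00742%), Gjb2. In all 7 the mice of the 2 groups did not overlap, which was also so for 100 genes higher in EIC + S120 kidneys (0.742%) and 127 lower (0.942%). The count of 7 was small beside the 605 genes higher (4.49%) and 563 lower (4.18%) at an unadjusted p under 0.05. It also depended on single mice and on the tool. With 1 mouse left out at a time, edgeR called no gene without EIC + S60 mouse 71, 72 or 75 (941, 1168 and 923 genes at an unadjusted p under 0.05), 1 without EIC + S60 mouse 73 or EIC + S120 mouse 81, 2 without EIC + S60 mouse 74 or EIC + S120 mouse 78 or 80, 7 without EIC + S120 mouse 79 and 75 without EIC + S120 mouse 77. DESeq2 called 143 genes (87 higher, 56 lower), all 7 among them, and limma-voom called 5. With other scaling factors the split was 6 higher and 3 lower (RLE), 6 and 2 (upper quartile) or 8 and 3 (total counts). The genes named are therefore described with the value of every mouse. With 0.0519% of all genes called, most lists below would hold no call, so that the absence of calls says little about their members.

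No measure of library depth or composition passed its test between the 2 groups. Total counts lay between 15915650 and 18180183 in EIC + S120 libraries and between 15220943 and 27948916 in EIC + S60 libraries (exact permutation test, two-sided p = 0.492). The smallest p that test can give with 5 against 5 is 0.00794. On the first principal component, with 27.7% of the variance, the groups overlapped (exact permutation p = 0.524). EIC + S120 mouse 77 scored -33.5 there, apart from the other EIC + S120 mice (7.66 to 20.64). Its mean correlation with its own group, 0.9857, was the lowest of the 10 libraries. On the second component, with 15.6%, EIC + S120 scores ran from -13.48 to -2.04 and EIC + S60 scores from -3.23 to 32.24 (exact permutation p = 0.0238, two-sided). In all, 5 components were tested, and these p-values are not adjusted for that. The tissue label held: proximal tubule genes summed to between 29362 and 41276 CPM (counts relative to library size) in EIC + S120 and between 28429 and 34282 CPM in EIC + S60 kidneys. Adrenal genes reached at most 3.10 CPM in EIC + S120 and 3.49 CPM in EIC + S60, and skeletal muscle genes at most 4.03 CPM in EIC + S120 and 3.83 CPM in EIC + S60. Levels below are CPM scaled over all 20 libraries, and values are listed from mouse 77 to 81 for EIC + S120 and from mouse 71 to 75 for EIC + S60. Log2 fold changes (LFC) are EIC + S120 over EIC + S60 from edgeR, with a 95% interval from limma. That interval is centred on limma's own estimate, so the LFC need not lie in its middle. Intervals are per gene and not adjusted for the number of genes. Whether fewer cells of a type or less RNA per cell lay behind a lower level cannot be told apart in whole tissue.

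Cry1, a repressor of CLOCK and BMAL1 in the circadian clock, was higher in EIC + S120 kidneys. It lies on chromosome 10 at 85131700 to 85185064 (GRCm38). It stood at 17.5, 21.7, 17.6, 19.1 and 23.9 CPM in EIC + S120 mice and at 6.62, 7.91, 11.05, 12.3 and 7.71 CPM in EIC + S60 mice. The lowest EIC + S120 mouse was thus above the highest EIC + S60 mouse, and the fold was 2.20 (LFC 1.13, interval 0.81 to 1.497, edgeR adjusted p = 0.0401). It was called in 3 of the 10 fits with a mouse left out and in all 9 other settings.

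**Figure D1:**
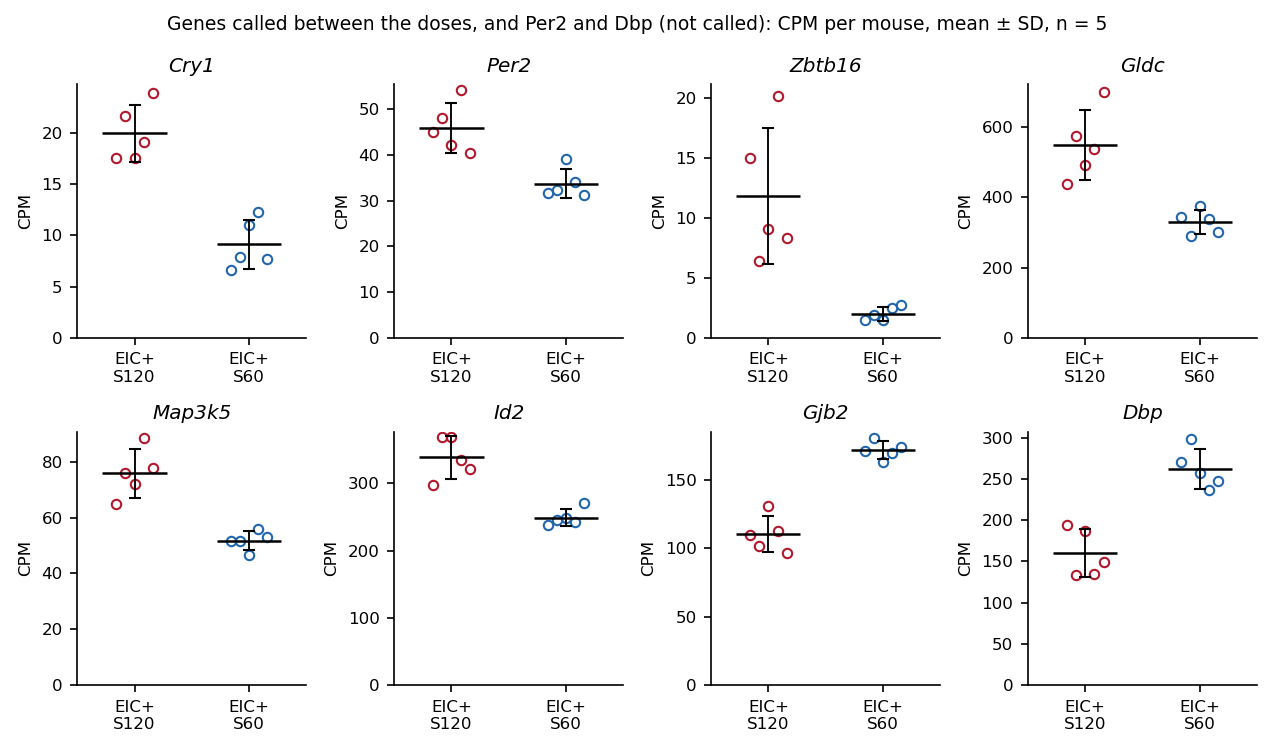
CPM (vertical axes, from 0) of 6 genes called between the doses and of Per2 and Dbp, which missed the threshold, with EIC + S120 mice in red at left and EIC + S60 mice in blue at right. Circles are single mice and bars are the mean ± SD (n = 5 each); in every panel the 2 sets of circles do not overlap, and Gjb2 and Dbp are the panels with the lower EIC + S120 values.

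Upstream windows of 3 clock genes are shown as examples of matches to the kinds of site through which the clock acts. Whether these matches act in these kidneys was not tested. Each runs from 250 bases before to 50 bases after a transcription start (RefSeq, GRCm38.p6), 5′ to 3′ on the strand of the gene, with the site in capitals. Cry1 is at chr10:85185005-85185304 on the minus strand and its capitals are an E-box, 60 bases before the start. Arntl is at chr7:113207215-113207514 on the plus strand and Nfil3 at chr13:52980990-52981289 on the minus strand. Their capitals are RORE matches, 200 and 181 bases before the start of Arntl and 12 before that of Nfil3. A window at another start of Arntl, chr7:113207261-113207560, is not printed. It holds a further RORE match, TAGGTCA, 30 bases after that start.
Cry1: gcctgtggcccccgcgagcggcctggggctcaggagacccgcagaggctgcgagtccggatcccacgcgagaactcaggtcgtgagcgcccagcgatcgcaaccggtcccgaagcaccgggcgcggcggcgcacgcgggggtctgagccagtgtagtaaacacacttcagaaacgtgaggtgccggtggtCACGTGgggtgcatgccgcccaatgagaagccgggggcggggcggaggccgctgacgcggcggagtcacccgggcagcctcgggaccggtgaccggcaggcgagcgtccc
Arntl: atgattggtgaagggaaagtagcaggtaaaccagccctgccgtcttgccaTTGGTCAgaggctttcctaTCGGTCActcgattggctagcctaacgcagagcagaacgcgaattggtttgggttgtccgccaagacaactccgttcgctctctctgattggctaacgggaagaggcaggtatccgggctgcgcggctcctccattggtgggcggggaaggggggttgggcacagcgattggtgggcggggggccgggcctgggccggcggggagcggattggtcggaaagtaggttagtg
Nfil3: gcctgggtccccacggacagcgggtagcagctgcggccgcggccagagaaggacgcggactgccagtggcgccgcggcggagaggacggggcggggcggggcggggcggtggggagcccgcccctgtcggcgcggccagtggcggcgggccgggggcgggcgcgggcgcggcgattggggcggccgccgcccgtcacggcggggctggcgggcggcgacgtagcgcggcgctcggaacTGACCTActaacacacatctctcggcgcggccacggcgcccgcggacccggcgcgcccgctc
The letters searched, on both strands, were CACGTG for the E-box, TNGGTCA for the RORE, TTATGNA for the D-box bound by DBP and NFIL3, and TGACGT for the cyclic AMP response element. No 2 of these matches overlapped in the windows printed. Of 32851 RefSeq windows of this length, 7.15% held the E-box, 11% the RORE, 9.72% the D-box and 7.51% the cyclic AMP response element, so that such matches are common. Among 16 clock genes looked up, 5 held an E-box and 5 a RORE. Besides Cry1, the E-box was in windows of Per1, Ciart, Bhlhe41 and Tef. Ciart and Bhlhe41 had LFC intervals below 0, opposite to Cry1. Besides Arntl and Nfil3, the RORE was in windows of Per3, Cry2 and Tef. The window of Dbp held neither. A window for Per2 or Zbtb16 was not used here.

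Other clock genes had values on either side without passing the test. Of 14 repressors, 1 (Cry1) was called, with 7 above and 7 below 0 (median LFC 0.01, as over all genes, of which 51.7% lay above 0), and of 10 output genes none was called (7 above 0, median 0.15). Dbp, a transcription factor of the clock's output that is driven through E-boxes, came closest to a call on the lower side. It stood at 194, 133, 187, 134 and 150 CPM in EIC + S120 mice and at 271, 299, 258, 237 and 247 CPM in EIC + S60 mice (LFC -0.71, interval -0.97 to -0.48, edgeR adjusted p = 0.0546). No EIC + S120 mouse reached an EIC + S60 mouse. Over the alternatives its adjusted p ran from 3.44e-06 (DESeq2) to 0.1996, and it was called in 5 of 9 settings other than leaving out a mouse.

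Nr1d1, which encodes the repressor REV-ERB-alpha, stood at 80.8, 36.8, 55.0, 43.3 and 32.4 CPM in EIC + S120 mice and at 102, 95.8, 90.3, 74.5 and 110 CPM in EIC + S60 mice. Only mouse 77 reached into the EIC + S60 range (LFC -0.93, interval -1.53 to -0.46, edgeR adjusted p = 0.256). Its close relative Nr1d2 had 130 to 155 CPM in EIC + S120 and 128 to 154 CPM in EIC + S60 mice (LFC 0.00, interval -0.15 to 0.14). Per2, a repressor partner of CRY1, stood at 44.9, 48.1, 42.2, 54.2 and 40.4 CPM in EIC + S120 mice and at 31.6, 32.3, 39.0, 34.0 and 31.3 CPM in EIC + S60 mice. The groups did not overlap, but the test was not passed (LFC 0.45, interval 0.27 to 0.63, edgeR adjusted p = 0.106). Per1, which glucocorticoids also induce, overlapped widely, with 32.2 to 78.8 CPM in EIC + S120 and 27.5 to 88.8 CPM in EIC + S60 mice (LFC 0.13, interval -0.73 to 1.13). Cry2, Per3, Tef and Hlf had LFC values between -0.16 and 0.03.

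Nfil3 and Arntl, printed above with their RORE matches, had positive LFC values with wide error. Other genes with a RORE match in a window did not share this direction. Tef had an LFC of -0.02, and Gjb2, a gene called lower, had -0.64. Cry2 and Per3 also held a match, and their LFC values lay in the range given above. Whether these sites bear on the levels was not tested. Nfil3, a repressor at D-boxes, stood at 7.11, 17.0, 10.3, 11.9 and 16.7 CPM in EIC + S120 mice and at 5.37, 6.40, 8.20, 7.77 and 4.24 CPM in EIC + S60 mice (LFC 0.99, interval 0.39 to 1.48, edgeR adjusted p = 0.210). Mouse 77 lay inside the EIC + S60 range. Arntl was near the lower end of detection, at 0.889, 5.77, 1.16, 1.45 and 1.79 CPM in EIC + S120 mice and at 0.590, 0.808, 1.57, 0.930 and 0.637 CPM in EIC + S60 mice (LFC 1.30, interval 0.03 to 1.87, edgeR adjusted p = 0.485). EIC + S120 mouse 78 alone was far above the rest. Npas2, a partner of BMAL1 in place of CLOCK, overlapped between the doses at 0.298 to 1.07 CPM in EIC + S120 and 0.233 to 1.11 CPM in EIC + S60 mice.

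**Figure D2:**
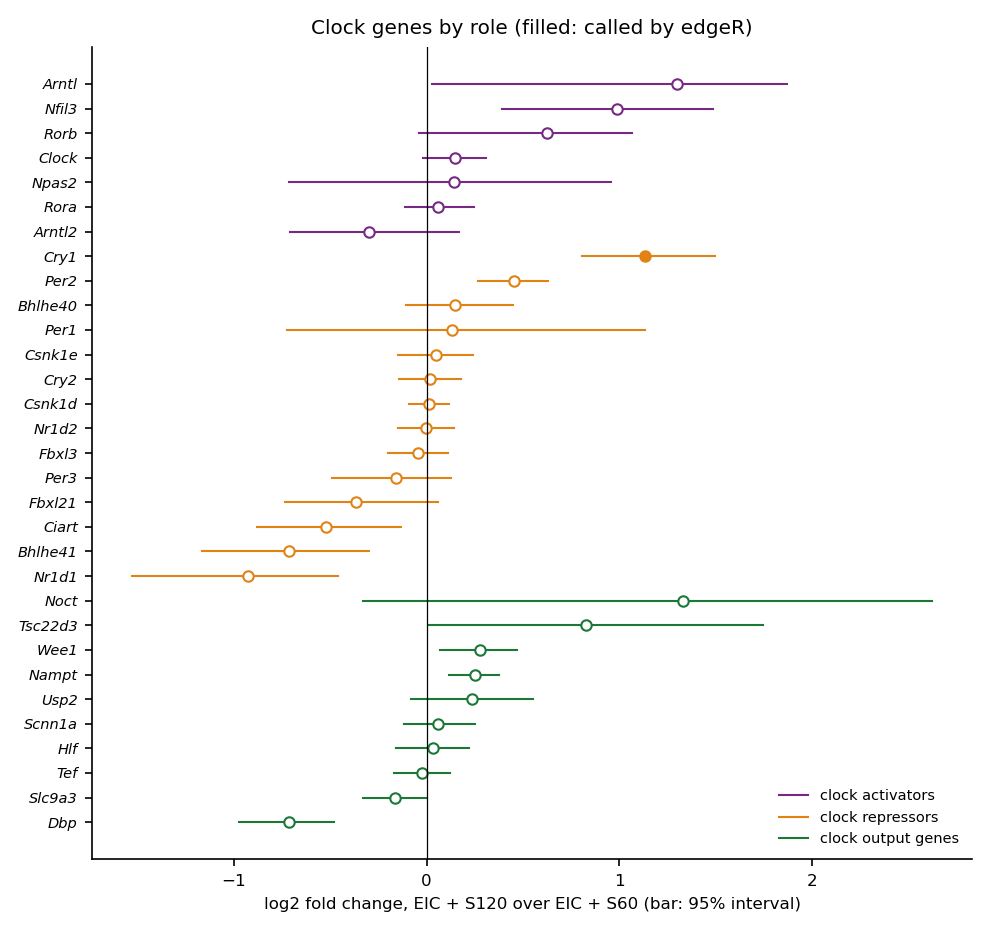
LFC of clock genes by role (EIC + S120 over EIC + S60, horizontal axis), with activators in purple, repressors in orange and output genes in green; bars are 95% intervals and the filled point is Cry1, called by edgeR. Dbp, Nr1d1, Bhlhe41 and Ciart have intervals wholly below 0 without a call, and the widest intervals belong to genes that varied most among mice, such as Noct and Per1.

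The groups without drug place these levels. Cry1 averaged 11.4 ± 1.68 CPM in EIC and 2.69 ± 0.75 CPM in Control mice (SD, n = 5 each). The EIC + S60 mice overlapped the EIC mice, whereas the EIC + S120 mice lay above every mouse of the other 3 groups. Dbp followed another order: EIC mice (232 to 293 CPM) overlapped EIC + S60 mice, while EIC + S120 mice (133 to 194 CPM) overlapped Control mice (132 to 186 CPM). Whether the groups' kidneys were taken at different hours was not tested.

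Zbtb16 had the largest LFC of the genes called. It encodes the zinc finger repressor PLZF, is a well-known target of the glucocorticoid receptor, and lies on chromosome 9 at 48654297 to 48836222. It stood at 14.99, 6.43, 9.10, 20.2 and 8.34 CPM in EIC + S120 mice and at 1.51, 1.90, 1.45, 2.46 and 2.76 CPM in EIC + S60 mice. Every EIC + S120 mouse was above every EIC + S60 mouse, and mice 77 and 80 were the highest (5.74-fold, LFC 2.52, interval 1.76 to 3.06, edgeR adjusted p = 0.0435). The call held in 4 of 10 fits with a mouse left out and was lost under limma-voom (adjusted p = 0.0704) and in the fit of all 20 libraries (edgeR adjusted p = 0.0863), with a range of 2.24e-12 to 0.119 over all alternatives. EIC mice, at 1.63 to 11.2 CPM, and Control mice, at 1.86 to 7.58 CPM, spread across much of the range of both dose groups.

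All 14 glucocorticoid-induced genes tested had an LFC above 0, with a median of 0.51 against 0.01 over all genes. Only Zbtb16 was called, and 6 of the 14 were higher at an unadjusted p under 0.05, beside 4.49% of all genes. Under 3 other scalings all 14 stayed above 0, and between 12 and 14 did so when a mouse was left out. Their summed level was 1449 to 2890 CPM in EIC + S120 and 938 to 1790 CPM in EIC + S60 mice, so that the sums overlapped. Like every list here, the glucocorticoid list was chosen with earlier results of these data known, and it includes Zbtb16. Members of a list can vary together among mice, so they are not separate observations. Fkbp5, which encodes a chaperone that restrains the glucocorticoid receptor, was at 119, 125, 97.5, 212 and 214 CPM in EIC + S120 mice and at 65.1, 37.5, 80.8, 48.3 and 48.1 CPM in EIC + S60 mice. No values overlapped, but the spread among EIC + S120 mice was wide (2.76-fold, LFC 1.46, interval 0.80 to 2.07, edgeR adjusted p = 0.156). In the fit of all 20 libraries the edgeR adjusted p of Fkbp5 was 0.0391, with a range of 0.000867 to 0.395 over all alternatives.

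Sgk1, a kinase that raises sodium channel activity in the distal nephron and responds to aldosterone and glucocorticoids, varied widely between mice. It stood at 185, 464, 174, 689 and 450 CPM in EIC + S120 mice and at 74.8, 116, 218, 219 and 43.5 CPM in EIC + S60 mice (LFC 1.55, interval 0.27 to 2.94, edgeR adjusted p = 0.478). Mice 77 and 79 lay inside the EIC + S60 range. Tsc22d3, which encodes the glucocorticoid-induced leucine zipper protein, stood at 99.1, 181, 88.8, 201 and 167 CPM in EIC + S120 mice and at 54.1, 82.4, 127, 114 and 40.3 CPM in EIC + S60 mice (LFC 0.83, interval 0.01 to 1.75, edgeR adjusted p = 0.590). The same 2 EIC + S120 mice were the lowest there. The metal-binding genes Mt1 and Mt2 had LFC values of 0.22 and 0.35. Of the other genes of sodium and potassium transport in the distal nephron, 25 with Sgk1, none was called and the median LFC was 0.00.

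Most immediate early genes had positive LFC values, with none of 25 called by edgeR, 11 higher at an unadjusted p under 0.05 and none lower, beside 4.49% and 4.18% of all genes. The median LFC was 0.45, and 21 of the 25 lay above 0, as did 20 or 21 under other scalings. DESeq2 called 6 of them, all higher, beside 87 called higher among all 13475 genes. The sums did not overlap between the doses, at 683 to 1194 CPM in EIC + S120 and 459 to 556 CPM in EIC + S60 mice. EIC mice, at 432 to 692 CPM, and Control mice, at 615 to 952 CPM, both reached into the EIC + S120 range. Zfp36, whose product speeds the decay of cytokine mRNAs, was nearest to a call. It stood at 105, 194, 95.7, 154 and 159 CPM in EIC + S120 mice and at 55.8, 56.2, 68.0, 64.8 and 51.7 CPM in EIC + S60 mice, without overlap (2.39-fold, LFC 1.26, interval 0.80 to 1.63, edgeR adjusted p = 0.0671). It was called by limma-voom (adjusted p = 0.0400, range 8.91e-10 to 0.229 over all alternatives).

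Fos, a subunit of the AP-1 factor, stood at 5.39, 22.2, 7.21, 8.38 and 11.1 CPM in EIC + S120 mice and at 1.11, 0.635, 3.20, 1.97 and 3.40 CPM in EIC + S60 mice. Egr1, a zinc finger activator, stood at 42.1, 97.7, 39.5, 33.2 and 59.96 CPM in EIC + S120 mice and at 8.58, 3.75, 9.83, 7.60 and 28.2 CPM in EIC + S60 mice. Neither gene overlapped between the doses, and in both, EIC + S120 mouse 78 was the highest. Their LFC values were 2.36 (interval 1.27 to 3.51) for Fos and 2.19 (1.24 to 3.62) for Egr1, with edgeR adjusted p of 0.178 and 0.239. Dusp1, a phosphatase that switches off MAP kinases, stood at 164, 291, 149, 238 and 209 CPM in EIC + S120 mice and at 73.5, 64.8, 114, 93.9 and 38.7 CPM in EIC + S60 mice, again without overlap (LFC 1.46, interval 0.81 to 2.19, edgeR adjusted p = 0.176).

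For Fos and Egr1 the mean level ran from EIC through EIC + S60 to EIC + S120, with Control mice highest. Fos averaged 1.87 CPM in EIC and 16.4 CPM in Control mice, and Egr1 averaged 6.77 CPM in EIC and 59.4 CPM in Control mice. EIC + S120 mice thus had levels that overlapped those of Control mice, and EIC + S60 mice had levels that overlapped those of EIC mice. Members with an LFC near 0 included Myc (LFC 0.02, interval -0.29 to 0.29), Klf6 (-0.04, interval -0.19 to 0.12) and Gadd45b (0.00, interval -0.51 to 0.48). The connective tissue gene Ctgf and its relative Cyr61, both quick to respond to stretch and growth factors, had LFC values of 0.77 (interval 0.39 to 1.17, edgeR adjusted p = 0.182) and 0.93 (interval 0.24 to 1.44, edgeR adjusted p = 0.361).

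**Figure D3:**
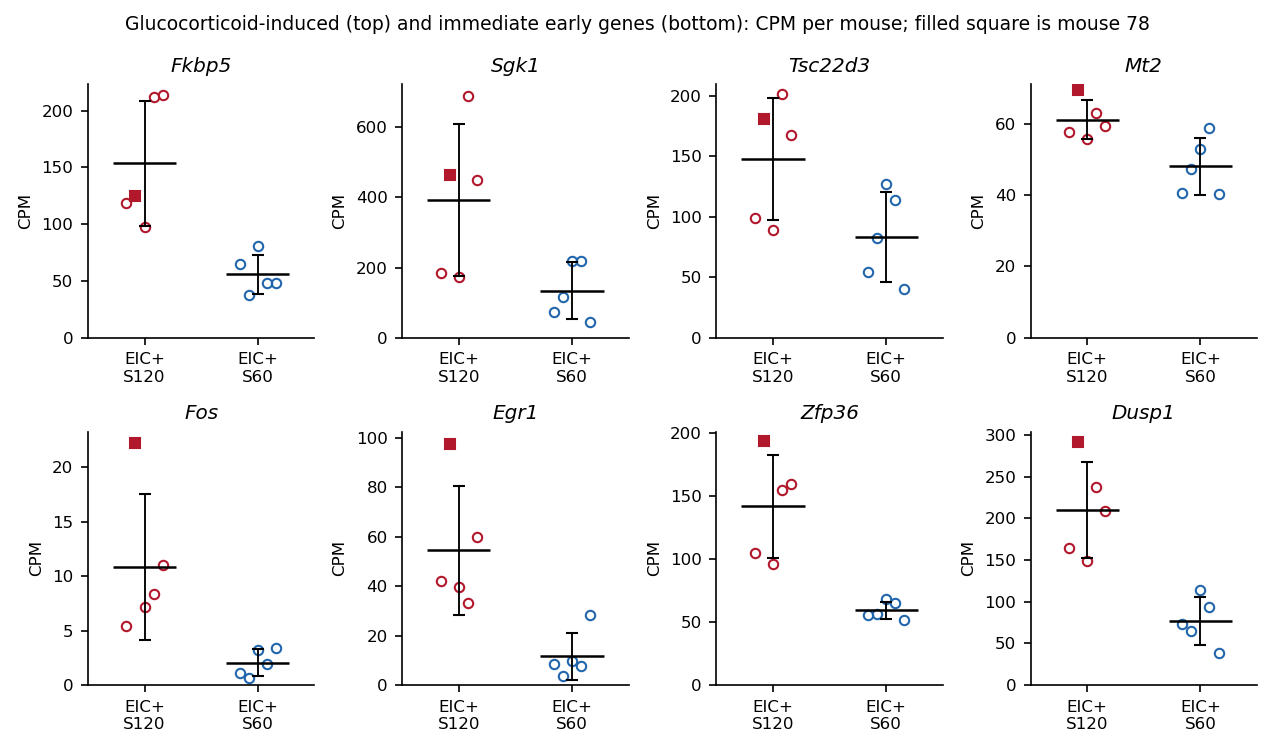
CPM per mouse (vertical axes, from 0) of 4 glucocorticoid-induced genes (top) and 4 immediate early genes (bottom), with EIC + S120 mice in red at left and EIC + S60 mice in blue at right; bars are mean ± SD (n = 5 each) and the filled square is EIC + S120 mouse 78. That mouse is the highest in all 4 lower panels, whereas mice 80 and 81 are the highest for Fkbp5.

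The other genes named among those called belong to different pathways. Gldc, which encodes the glycine decarboxylase of the mitochondrial glycine cleavage system, lies on chromosome 19 at 30098447 to 30175429. It stood at 439, 575, 493, 539 and 702 CPM in EIC + S120 mice and at 346, 291, 375, 338 and 302 CPM in EIC + S60 mice (1.67-fold, LFC 0.74, interval 0.49 to 0.97, edgeR adjusted p = 0.0438). Mouse 77 was again the EIC + S120 mouse nearest to the EIC + S60 mice. Map3k5 encodes ASK1, a kinase upstream of JNK and p38 in the response to oxidative stress, and lies on chromosome 10 at 19934472 to 20142753. It stood at 64.9, 75.8, 72.0, 88.7 and 77.8 CPM in EIC + S120 mice and at 51.7, 51.5, 46.5, 56.0 and 53.2 CPM in EIC + S60 mice (1.47-fold, LFC 0.55, interval 0.38 to 0.72, edgeR adjusted p = 0.0392). EIC mice averaged 51.3 CPM and Control mice 51.3 CPM, and all but 1 of the 15 mice outside EIC + S120 lay at or below 56.0 CPM, the exception being a Control mouse at 60.9 CPM. Of 18 MAP kinases and dual-specificity phosphatases tested, Map3k5 was the gene called, and the kinases it acts through, such as Mapk8 (LFC -0.01, interval -0.21 to 0.18) and Mapk14 (LFC 0.10, interval -0.03 to 0.23), had intervals that include 0. Gldc was called in 2 and Map3k5 in 2 of 10 fits with a mouse left out, and Gldc was not called by limma-voom (adjusted p = 0.0507, range 7.78e-07 to 0.144 over all alternatives).

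Id2, an inhibitor of basic helix-loop-helix factors, is induced by BMP signals and is also rhythmic in many tissues. It lies on chromosome 12 at 25093799 to 25097140. It stood at 297, 370, 370, 336 and 322 CPM in EIC + S120 mice and at 238, 246, 248, 242 and 271 CPM in EIC + S60 mice (1.36-fold, LFC 0.45, interval 0.29 to 0.59, edgeR adjusted p = 0.0438). The groups did not overlap, with the gap smallest between mouse 77 and EIC + S60 mouse 75. The call was the least stable of the 7, holding in 1 of 10 fits with a mouse left out and lost under limma-voom (adjusted p = 0.0507) and in the fit of all 20 libraries (edgeR adjusted p = 0.174), the ends of the range over all alternatives being 7.78e-07 and 0.174. The other Id genes had LFC values of 0.85 (Id1, interval 0.35 to 1.45, edgeR adjusted p = 0.293), 0.66 (Id3, interval 0.16 to 1.28) and 0.29 (Id4, interval -0.02 to 0.59), and Id1 did not overlap between the doses. Ligands and mediators of the pathway, among 23 genes tested with a median LFC of 0.00, had no other call, and Tgfbr2 had an LFC of -0.23 (interval -0.38 to -0.08, edgeR adjusted p = 0.302).

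Gjb2, which encodes the gap junction protein connexin 26, was the single gene called lower. It lies on chromosome 14 at 57098600 to 57104702. It stood at 109, 101, 130, 113 and 96.0 CPM in EIC + S120 mice and at 171, 181, 163, 170 and 174 CPM in EIC + S60 mice, so that the fold was 0.642 (LFC -0.64, interval -0.81 to -0.48, edgeR adjusted p = 0.0125). The EIC + S60 mice lay close together and all above the EIC + S120 mice. EIC mice, at 129 to 168 CPM, reached down to the highest EIC + S120 mouse, and Control mice, at 135 to 213 CPM, lay above all EIC + S120 mice. Its call held in 7 of 10 fits with a mouse left out, more than for any other gene called, and in all 9 other settings. Next on the lower side was Cited2, a regulator that restrains hypoxia signalling. It stood at 79.4, 78.3, 78.1, 75.4 and 77.3 CPM in EIC + S120 mice and at 98.7, 92.1, 104, 97.8 and 91.1 CPM in EIC + S60 mice (LFC -0.31, interval -0.42 to -0.20, edgeR adjusted p = 0.0546). The EIC + S120 mice lay within a narrow range below all EIC + S60 mice, and the gene was called in 5 of 9 settings other than leaving out a mouse.

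The receptors that the drug blocks and the genes of their pathways gave no call between the doses. Among 9 renin-angiotensin genes and 6 endothelin genes tested, none was called, with median LFC values of 0.00 and 0.05. Since 0.0519% of all genes were called, lists this small would mostly hold no call. Renin (Ren1), the enzyme that rises when angiotensin signalling is blocked, stood at 592, 862, 756, 464 and 818 CPM in EIC + S120 mice and at 805, 514, 837, 440 and 756 CPM in EIC + S60 mice. The dose groups overlapped almost completely (LFC 0.06, interval -0.43 to 0.57, edgeR adjusted p = 0.963), so that a difference larger than 0.57 on the log2 scale lies outside the interval. Both dose groups lay above the other groups, with EIC mice at 135 to 231 CPM and Control mice at 55.6 to 230 CPM. Ren1 can share reads with a near-identical copy in some mouse strains, which the counting may not separate.

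Agtr1a stood at 42.3, 42.4, 52.4, 45.8 and 44.7 CPM in EIC + S120 mice and at 57.7, 46.6, 50.2, 49.7 and 50.5 CPM in EIC + S60 mice. Mouse 79 was the EIC + S120 mouse that reached into the EIC + S60 range (LFC -0.16, interval -0.32 to -0.01, edgeR adjusted p = 0.550). Ednra stood at 6.46, 5.36, 6.11, 4.98 and 5.95 CPM in EIC + S120 mice and at 7.08, 4.21, 5.81, 4.76 and 4.07 CPM in EIC + S60 mice (LFC 0.17, interval -0.16 to 0.52, edgeR adjusted p = 0.827). The ligand Edn1 lay at 0.953 to 2.31 CPM in EIC + S120 and at 1.31 to 3.06 CPM in EIC + S60 mice (LFC -0.37, interval -0.90 to 0.19). The endothelin type B receptor Ednrb had an LFC of 0.08 (interval -0.19 to 0.34), the angiotensin-converting enzyme Ace 0.16 (interval -0.08 to 0.40) and angiotensinogen, Agt, -0.32 (interval -0.91 to 0.19). All of these groups of mice overlapped.

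**Figure D4:**
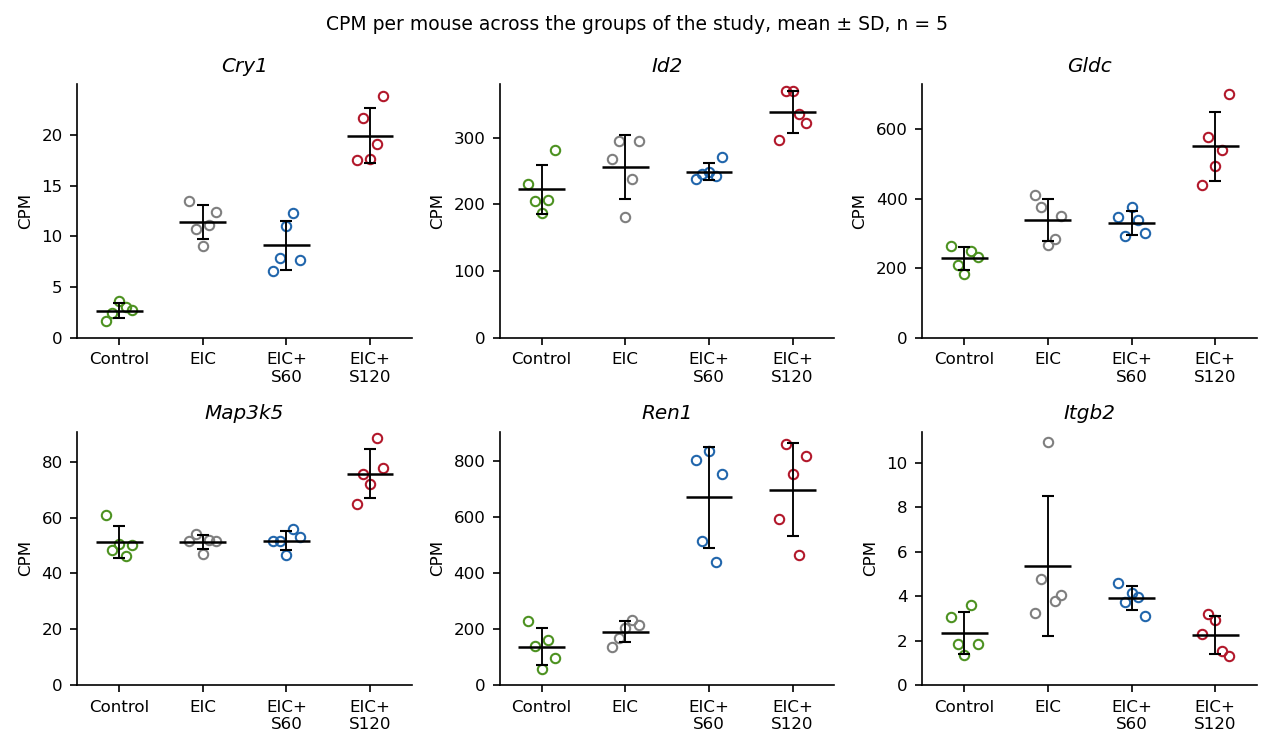
CPM per mouse (vertical axes, from 0) of 6 genes across Control, EIC, EIC + S60 and EIC + S120 mice, in order of dose from left to right; circles are single mice and bars are mean ± SD (n = 5 each). Cry1, Id2, Gldc and Map3k5 stand higher in EIC + S120 mice than in the mice of the EIC and EIC + S60 groups, whereas Ren1 is at like levels in both dose groups and above EIC and Control.

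Proximal tubule metabolism had single genes with positive LFC values. Pck1 and G6pc encode the rate-setting enzymes at the start and the end of glucose production. Pck1 stood at 5619, 9749.6, 9033, 9138 and 9965 CPM in EIC + S120 mice and at 7196, 5783, 6398, 5574 and 6198 CPM in EIC + S60 mice (LFC 0.48, interval 0.15 to 0.77, edgeR adjusted p = 0.250). G6pc stood at 747, 1532, 1205, 1713 and 1585 CPM in EIC + S120 mice and at 829, 579, 1064, 881 and 582 CPM in EIC + S60 mice (LFC 0.79, interval 0.21 to 1.33, edgeR adjusted p = 0.344). In both genes mouse 77 lay within the EIC + S60 range and the other 4 EIC + S120 mice lay above it. Of 25 proximal tubule genes none was called (median LFC 0.02, 13 above 0), with the sodium phosphate cotransporter Slc34a1 at an LFC of 0.02 (interval -0.24 to 0.28).

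Of 21 PPAR-alpha and fatty acid oxidation genes, 19 had an LFC above 0, beside 51.7% of all genes, and 6 were higher at an unadjusted p under 0.05, beside 4.49%. None was called, and the median LFC was 0.13. With scaling by total counts alone 15 of 21 lay above 0. Slc25a20, the carnitine carrier of the mitochondrial inner membrane, had 94.3, 105, 103, 125 and 115 CPM in EIC + S120 mice and 83.002, 87.9, 82.3, 88.2 and 66.6 CPM in EIC + S60 mice (LFC 0.41, interval 0.22 to 0.60, edgeR adjusted p = 0.148). Acot1, a cytosolic enzyme that frees fatty acids from coenzyme A, had 109, 143, 122, 185 and 160 CPM in EIC + S120 mice and 103, 103, 85.9, 85.2 and 68.7 CPM in EIC + S60 mice (LFC 0.70, interval 0.35 to 1.02, edgeR adjusted p = 0.174). Neither overlapped between the doses, while Cpt1a (LFC 0.04, interval -0.10 to 0.19) and Ppara itself (LFC -0.02, interval -0.44 to 0.37) did. Of 24 cholesterol and lipid synthesis genes none was called and 16 had an LFC below 0 (median -0.09). Stard4, a carrier of cholesterol, was at 82.3 to 99.6 CPM in EIC + S120 and at 107 to 139 CPM in EIC + S60 mice (LFC -0.37, interval -0.52 to -0.20, edgeR adjusted p = 0.148).

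In the collecting duct, 8 of 9 principal cell genes had an LFC below 0, with none called and a median of -0.21. Aqp3, the water channel of the basolateral membrane, stood at 137, 112, 128, 140 and 109 CPM in EIC + S120 mice and at 183, 155, 168, 154 and 175 CPM in EIC + S60 mice, without overlap (LFC -0.41, interval -0.59 to -0.24, edgeR adjusted p = 0.123). Aqp2, the vasopressin-regulated channel of the apical membrane, overlapped between the doses at 187 to 482 CPM in EIC + S120 and 289 to 432 CPM in EIC + S60 mice (LFC -0.31, interval -0.93 to 0.16). The inner medullary urea transporter Slc14a2 ranged from 3.04 to 69.1 CPM in EIC + S120 and from 0.93 to 65.6 CPM in EIC + S60 mice. The whole list of inner medulla, urothelium and osmolyte genes summed to 634 to 1085 CPM in EIC + S120 and to 639 to 803 CPM in EIC + S60 mice, and its part in these values was not tested.

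Inflammatory genes gave no call between the doses, beside 0.0519% of all genes called, a share at which such lists would mostly hold none. All 17 genes of the list of Fc receptors and leukocyte integrins that could be tested had an LFC below 0 (median -0.27), as under every other scaling, but none was called and 5 were lower at an unadjusted p under 0.05, beside 4.18% of all genes. With a mouse left out, between 10 and 17 lay below 0. Their summed level was 44.7 to 62.8 CPM in EIC + S120 and 61.6 to 70.7 CPM in EIC + S60 mice, overlapping at their ends, and EIC mice ranged from 54.1 to 115.6 CPM and Control mice from 53.8 to 62.0 CPM. Itgb2, the shared chain of the leukocyte integrins, stood at 2.31, 3.21, 2.93, 1.51 and 1.31 CPM in EIC + S120 mice and at 4.59, 3.75, 4.13, 3.94 and 3.11 CPM in EIC + S60 mice, overlapping in mouse 78 (LFC -0.78, interval -1.33 to -0.32, edgeR adjusted p = 0.282). These levels are low, and Fcer1g (LFC -0.01, interval -0.75 to 0.59) and Fcgr3 (LFC -0.05, interval -0.75 to 0.52) were near 0 with wide intervals.

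Summed levels of leukocyte markers overlapped between the dose groups. Macrophage and monocyte genes summed to 116 to 166 CPM in EIC + S120 and 114 to 198 CPM in EIC + S60 mice, with 16 of 20 genes below 0 and none called. The T and NK cell genes summed to at most 2.93 CPM in EIC + S120 and 4.16 CPM in EIC + S60 mice, and the B and plasma cell genes to at most 2.84 CPM in EIC + S120 and 3.28 CPM in EIC + S60 mice. Their part in the values of the Fc receptor and integrin genes was not tested. Of 28 type I interferon-stimulated genes 16 had an LFC above 0 (median 0.06), and of 18 interferon-gamma-inducible GTPase genes 5 did (median -0.08), with none called in either list. Of 16 complement genes 8 lay above 0, with a median of 0.01.

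**Figure D5:**
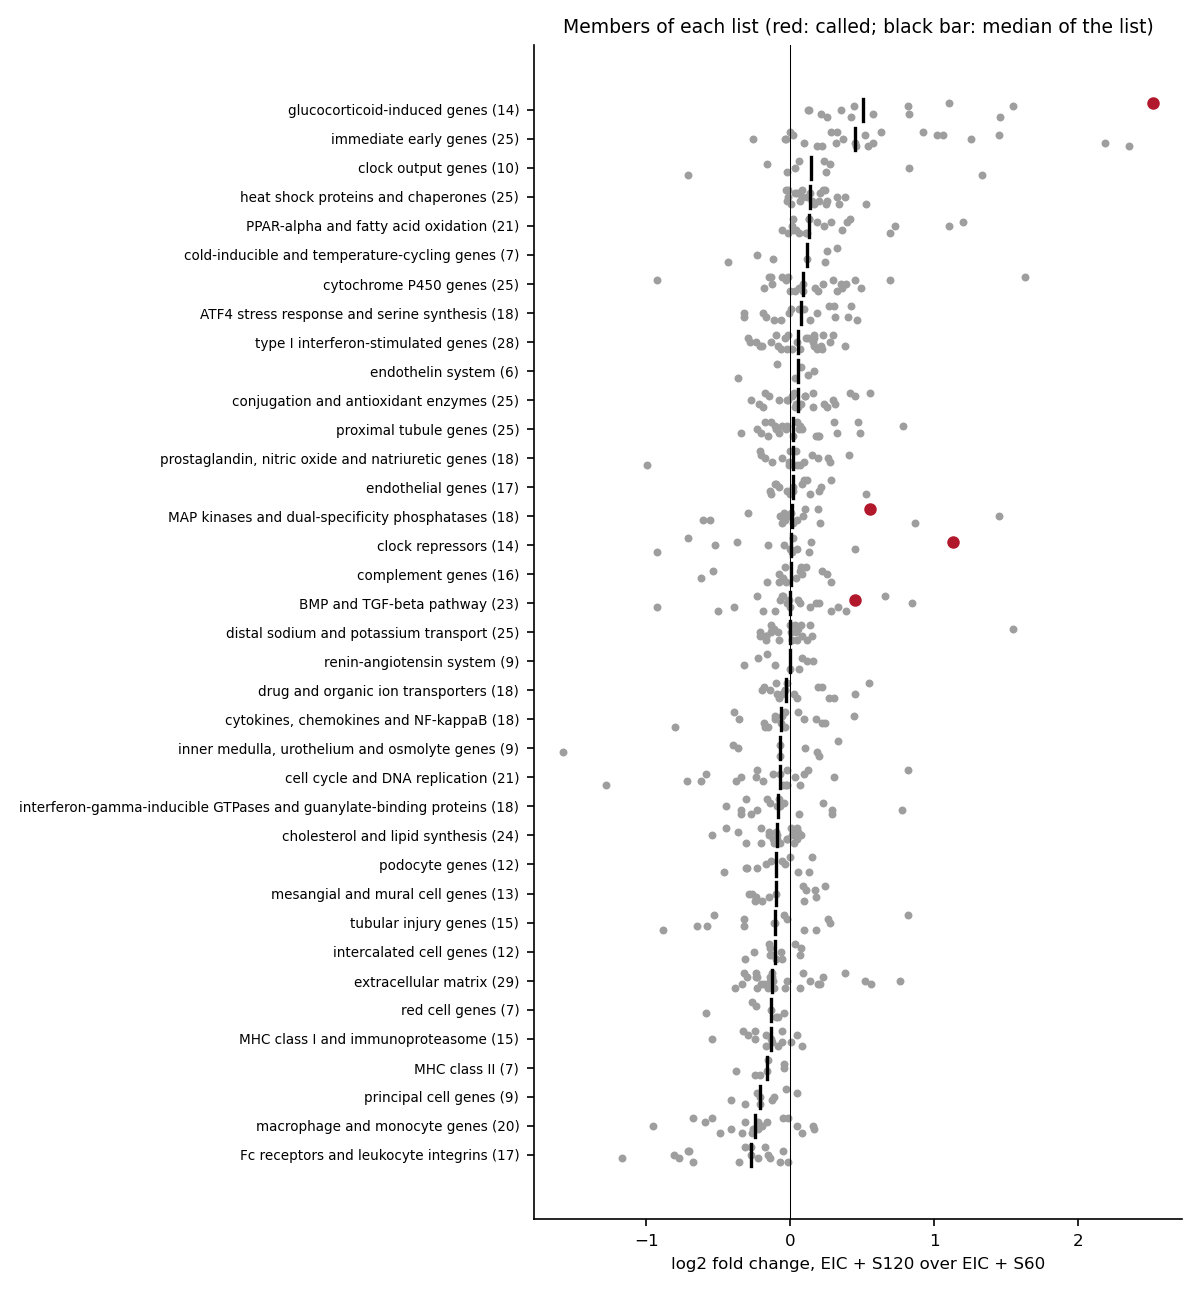
LFC (EIC + S120 over EIC + S60, horizontal axis) of each member shown of lists with 5 or more tested genes, with the number tested in brackets; points are genes, red points are genes called and black bars are the medians of the lists. Glucocorticoid-induced and immediate early genes have the medians farthest above 0, at 0.51 and 0.45, and Fc receptors with leukocyte integrins the median farthest below, at -0.27.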

How the data were processed

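Reads from poly(A)-selected kidney RNA had been trimmed with Trimmomatic 0.36, aligned to GRCm38 with STAR 2.5.2b and counted per gene with featureCounts of Subread 1.5.2, per the labels' processing notes. Neither the annotation nor the strand setting is given in the sources used here. The authors deposited raw counts per gene for 15780 genes. A gene entered the test when 5 or more of the 10 libraries had 10 or more counts of it. The test was that of edgeR 4.0.16 (TMM scaling, robust quasi-likelihood, R 4.3.3), with Benjamini-Hochberg adjustment over 13475 genes and a threshold of 0.05. Intervals came from limma 3.58.1 fitted to log2 CPM (prior count 2). Library measures were compared by exact permutation tests over 252 divisions. Symbols were matched to GENCODE (15387) or to a RefSeq synonym (278). Alternatives were no filter, at least 10 counts in total, RLE, upper-quartile or total-count scaling, DESeq2 1.42.0, limma-voom, edgeR without the robust option, all 20 libraries in the fit, and each mouse left out. The scripts were tested on simulated data. The study's methods state both a random division into groups and that no randomization was performed, and that cages were not controlled for. P-values set the difference between the 2 groups against the spread between these mice. They do not cover effects shared by a whole dose group, such as that of a cage. Genes named were all those called, up to 4 members of each list by smallest p, all members of lists of at most 12 genes, and the targets of the drug with their ligands. Other genes named were chosen after their values were seen. The gene lists, motifs and comparison were chosen with earlier results of these data known. A gene called between the doses is not reported here, and the figures leave it out.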

Additional observations from a re-analysis of the deposited data

Results flagged for a closer look

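Of 68 sets of 5 mice examined (34 genes in each dose group), 6 held 1 mouse whose gap to its nearest neighbour exceeded 0.71 of the range of the set. Chance gives this in about 1 set in 20 when values are independent and normally distributed. Here the genes were those called or named in the text, and the same mice recur across genes. The 6 sets can therefore not be set against that rate. In EIC + S120 kidneys, Arntl was at 5.77 CPM in mouse 78 (0.889 to 1.79 CPM in the other 4), and Cyp27b1, the enzyme that activates vitamin D, was at 20.4 CPM in the same mouse (2.01 to 6.599 CPM in the others). Pck1 was at 5619 CPM in EIC + S120 mouse 77 (9033 to 9965 CPM in the others). In EIC + S60 kidneys, mouse 75 stood apart for Egr1 at 28.2 CPM (3.75 to 9.83 CPM in the others), for Slc25a20 at 66.6 CPM (82.3 to 88.2 CPM) and for Stard4 at 139 CPM (107 to 115 CPM). Mouse 75 also had the deepest library of the EIC + S60 group, with 27948916 counts, and its part in these values was not tested.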

How the results depend on the processing

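The count of 7 genes, 6 higher and 1 lower in EIC + S120 kidneys, depended on the setting. Genes called lower numbered 2 with no filter on low counts, with at least 10 counts in total or with upper-quartile scaling, 3 with RLE scaling and 4 with all 20 libraries in the fit. Scaling by total counts alone gave 11 genes, 3 of them lower, and DESeq2 gave 143, with 87 higher and 56 lower. Leaving out 1 mouse at a time gave 0 to 75 genes, with 0 to 52 higher and 0 to 23 lower. All 7 genes were called under DESeq2 and without EIC + S120 mouse 77, and limma-voom lost Id2, Gldc and Zbtb16. No gene among the 7 changed direction under any alternative, and the cause of the shifts in count was not tested. No paired analysis was possible because the mice of the 2 groups carry different numbers. Genes under 1 CPM, such as Npas2, rest on few reads at these depths, so differences in them were not detectable beyond their wide intervals.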

Other observations

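Heat shock proteins and chaperones had an LFC above 0 for 21 of 25 genes (19 to 21 under other scalings), with a median of 0.14 and none called. Creld2, a chaperone-related protein of the endoplasmic reticulum, stood at 24.8, 31.4, 30.7, 33.3 and 31.5 CPM in EIC + S120 mice and at 20.8, 18.9, 24.8, 23.5 and 17.5 CPM in EIC + S60 mice (LFC 0.53, interval 0.31 to 0.75, edgeR adjusted p = 0.110). The lowest EIC + S120 mouse and the highest EIC + S60 mouse were nearly equal, and the groups did not overlap. Hspa8, the constitutive chaperone of the cytosol, had an LFC of 0.33 (interval 0.08 to 0.58), while the inducible Hspa1a had 0.25 (interval -0.48 to 0.82).

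Cell cycle and DNA replication genes had an LFC below 0 in 15 of 21 cases (median -0.07), with none called. The 28 genes of the list summed to 319 to 369 CPM in EIC + S120 and 379 to 440 CPM in EIC + S60 mice, without overlap. EIC mice summed to 418 to 502 CPM and Control mice to 500 to 738 CPM. Mki67, a protein of dividing cells, stood at 0.770, 0.536, 0.550, 0.504 and 0.357 CPM in EIC + S120 mice and at 1.44, 2.13, 0.698, 1.26 and 1.17 CPM in EIC + S60 mice (LFC -1.28, interval -1.72 to -0.48, edgeR adjusted p = 0.202). Only mouse 77 reached into the EIC + S60 range, at levels where few reads were counted. Of 29 extracellular matrix genes 19 lay below 0 (median -0.13), of 15 genes of MHC class I and the immunoproteasome 12 did (median -0.14), and of 12 podocyte genes 8 did (median -0.10), again with none called. Sult1d1, a sulfotransferase that was the gene with the smallest p of the conjugation and antioxidant list, was at 717 to 1153 CPM in EIC + S120 and at 553 to 753 CPM in EIC + S60 mice (LFC 0.55, interval 0.28 to 0.80, edgeR adjusted p = 0.148).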
